A study of Mus musculus with 19 samples.

Results

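The SLC25 family of mitochondrial carriers was described across the ventricles of wild-type mice and of mice labelled as Mpc1 knockouts. Mpc1 transcripts were lower but not absent in the knockout libraries. Members were the genes whose symbol is Slc25a followed by digits and whose mean over the 19 libraries was at least 0.5 CPM (read pairs scaled to the library total times its factor from the trimmed mean of M-values, TMM). This rule used no comparison between groups, and 39 of the 47 genes with such a symbol met it, among 55536 genes counted. Just inside the threshold lay Slc25a29 with a mean of 0.890 CPM, and just outside it lay Slc25a2 with 0.243 CPM and Slc25a31 with 0.227 CPM. All 39 members also passed the filter on low counts that left 15503 genes for testing. The groups were Mpc1 knockout hearts 8 weeks after induction (KO-8, 4 libraries), wild type at the same time (WT-8, 5 libraries), knockout at 16 weeks (KO-16, 5 libraries) and wild type at 16 weeks (WT-16, 5 libraries). The series title calls the model a knockdown that is inducible and specific to the heart of adult mice, and the sample labels call it a knockout. Strain, age, the driver of the deletion, the inducing agent and whether wild-type mice carried or received either are not given in the labels. Nothing in the labels ties libraries to separate animals, and p-values therefore measure the spread between these libraries only.

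SLC25 carriers are proteins of the mitochondrial inner membrane, with a few members found in other membranes, and they exchange or co-transport metabolites between the cytosol and the matrix. Each carrier opens in turn to either side of the membrane and binds its substrate at a central site. In the heart the best known members exchange ADP for ATP, bring in phosphate for ATP synthesis, pass acylcarnitines to fatty acid oxidation and run the malate-aspartate shuttle, which moves reducing equivalents into the matrix. The mitochondrial pyruvate carrier, of which Mpc1 encodes a subunit, belongs to a separate protein family.

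Library totals were 16528626 to 19466260 counted read pairs in KO-8, 17420121 to 27516660 in WT-8, 9538130 to 26914074 in KO-16 and 8632127 to 19678367 in WT-16. A gene annotated on 18S ribosomal RNA took 1.71% to 30.0% of the counts in KO-16 and 6.88% to 39.1% in WT-16, but at most 0.0666% in any 8-week library. The common coefficient of variation between libraries of a group was 0.0936 at 8 weeks and 0.24 at 16 weeks, so each time was tested in its own fit and a joint fit to all 19 libraries is given beside it where it changes a call. Log2 fold changes are given ± SE. Transcripts linked to sex set apart replicate 4 of KO-16 and replicate 5 of WT-16 from the other libraries. Cardiomyocyte markers were abundant in every library, with a summed level over 10 genes of 29679 to 50388 CPM in KO-16 and 47997 to 55018 CPM in WT-16. In bulk tissue, fewer cells of a type and less RNA per cell cannot be told apart. Mpc1 itself had 10.8 ± 1.62 CPM in KO-8 (SD, n = 4), against 74.3 ± 6.82 CPM in WT-8 (SD, n = 5), a log2 fold change of -2.78 ± 0.10 (adjusted p = 6.03e-10). KO-16 averaged 15.1 ± 6.99 CPM of Mpc1 and WT-16 69.6 ± 9.29 CPM (SD over 5 libraries of each), which is -2.22 ± 0.25 on the log2 scale (adjusted p = 0.00120). Among knockout libraries Mpc1 was highest in replicate 1 of KO-16, at 26.2 CPM, with replicates 2 to 5 between 9.03 and 15.9 CPM.

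Per kilobase of exon, the ventricle's SLC25 transcripts were dominated by 1 gene. Slc25a4, the ADP/ATP carrier of heart and skeletal muscle, averaged 796 CPM per kilobase over the 19 libraries. Next came Slc25a3, the phosphate carrier, with 77.8, Slc25a11, the oxoglutarate-malate carrier, with 65.7, and Slc25a5, a more widely expressed ADP/ATP carrier, with 48.3 CPM per kilobase. Slc25a34, whose substrate is not established, held the fifth place with 26.5 CPM per kilobase. It was followed by the aspartate-glutamate carrier Slc25a13 with 20.9 and the carnitine-acylcarnitine carrier Slc25a20 with 15.9. The least abundant member was Slc25a53, at 0.217 CPM per kilobase. Length covers all annotated exons of a gene, used or not: 2353 bases in Slc25a4 (1872 CPM) and 5550 bases in Slc25a3 (432 CPM). Ranks, shares and ratios per kilobase depend on this length. Slc25a4 alone made up 66.9% to 68.9% of the summed level per kilobase of the 39 members in KO-8, 66.4% to 68.6% in WT-8, 65.9% to 72.7% in KO-16 and 71.0% to 72.1% in WT-16, and knockout and wild type overlapped at both times. The sum of all members in CPM was 3567 to 4142 in KO-8 and 3493 to 4027 in WT-8, and 2401 to 3061 in KO-16 and 2728 to 3034 in WT-16.

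**Figure D1:**
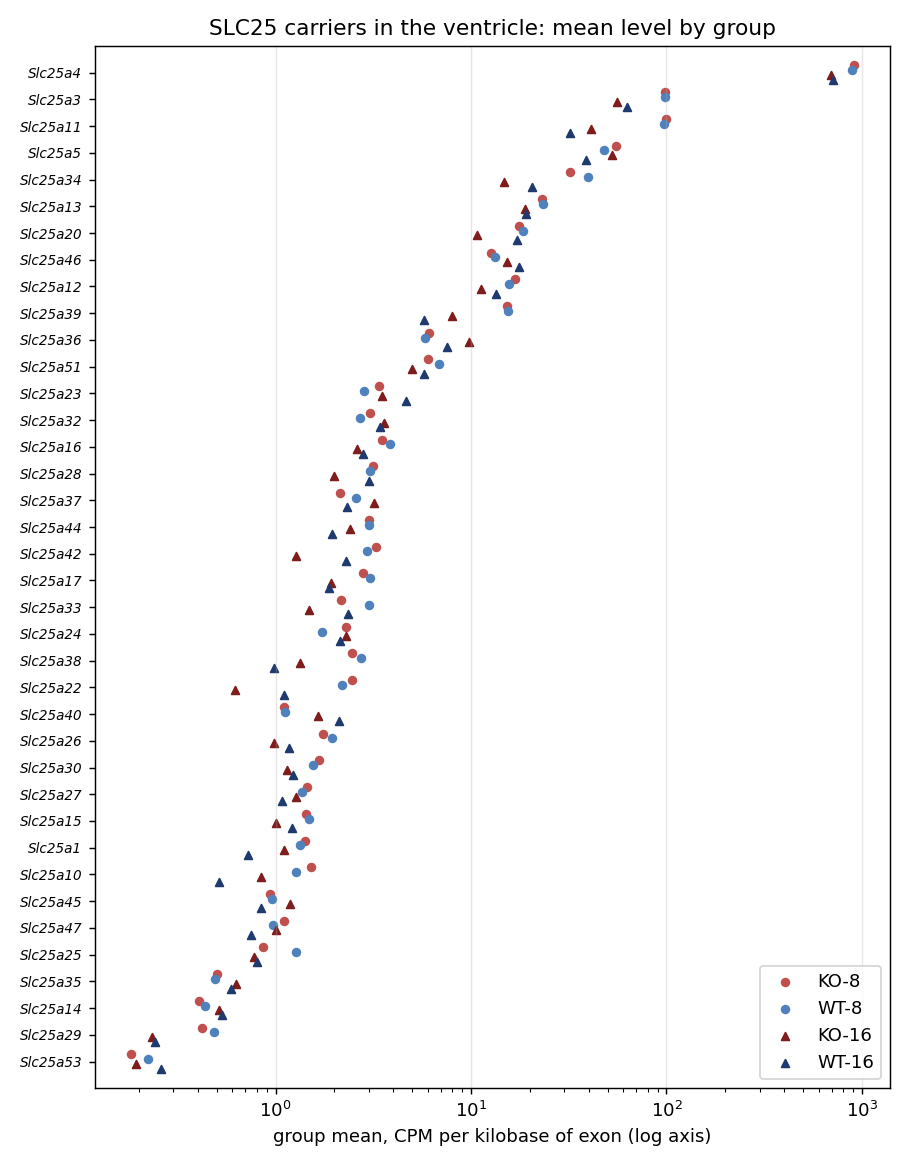
Mean level of 38 of the 39 SLC25 carriers in KO-8, WT-8, KO-16 and WT-16, in CPM per kilobase of exon on a log axis, ordered by the mean over all libraries. Slc25a4, with 796 CPM per kilobase over all libraries, stands apart from the next gene, Slc25a3, with 77.8.

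At 8 weeks 2 of the 39 carriers (5.13%) passed edgeR's quasi-likelihood test at a Benjamini-Hochberg adjusted p of 0.05, against 8.19% of all genes tested. Both were higher in the knockout (4.01% of all genes were called higher) and none was lower (4.19%). They were Slc25a24 and Slc25a23, which both encode calcium-dependent carriers that exchange ATP-Mg for phosphate. In the joint fit, where both times share an estimate of the spread, no carrier passed and 0.200% of all genes did. The groups did not overlap in 4 carriers (10.3%), against 10.7% of all genes: Slc25a23 and Slc25a24 lay above wild type, a position held by 4.98% of all genes, and Slc25a33 and Slc25a51 lay below it, as did 5.75% of all genes. The median log2 fold change of the carriers was -0.01, the same as for all genes, and the median of its size was 0.11 among carriers and 0.12 among all genes. An unadjusted p under 0.05 was reached by 10 carriers (25.6%) and by 23.0% of all genes.

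At 16 weeks 1 of the 39 carriers (2.56%) passed, against 2.55% of all genes tested. It was lower in the knockout (0.832% of all genes were called lower), and no carrier was higher (1.72%). This was Slc25a20, which brings acylcarnitines into the matrix. In the joint fit 10 carriers (25.6%) passed, against 20.5% of all genes: Slc25a5, Slc25a10, Slc25a36 and Slc25a39 were higher in KO-16, and Slc25a20, Slc25a22, Slc25a23, Slc25a28, Slc25a34 and Slc25a42 were lower. Of all genes 11.2% were called higher in that fit and 9.32% lower. Only Slc25a42 had groups that did not overlap (2.56% of carriers, against 4.29% of all genes, and 2.30% with the knockout below). The median log2 fold change was -0.04 among carriers and 0.02 among all genes, with a median size of 0.31 and 0.28. An unadjusted p under 0.05 was reached by 10 carriers (25.6%), against 23.5% of all genes. The carriers' log2 fold changes ranged from -0.55 to 0.41 at 8 weeks and from -0.86 to 0.79 at 16 weeks, so none changed by 2-fold or more at either time, a size that 259 of all genes tested reached at 8 weeks and 1279 at 16 weeks. The share of carriers called was near the background at both times.

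**Figure D2:**
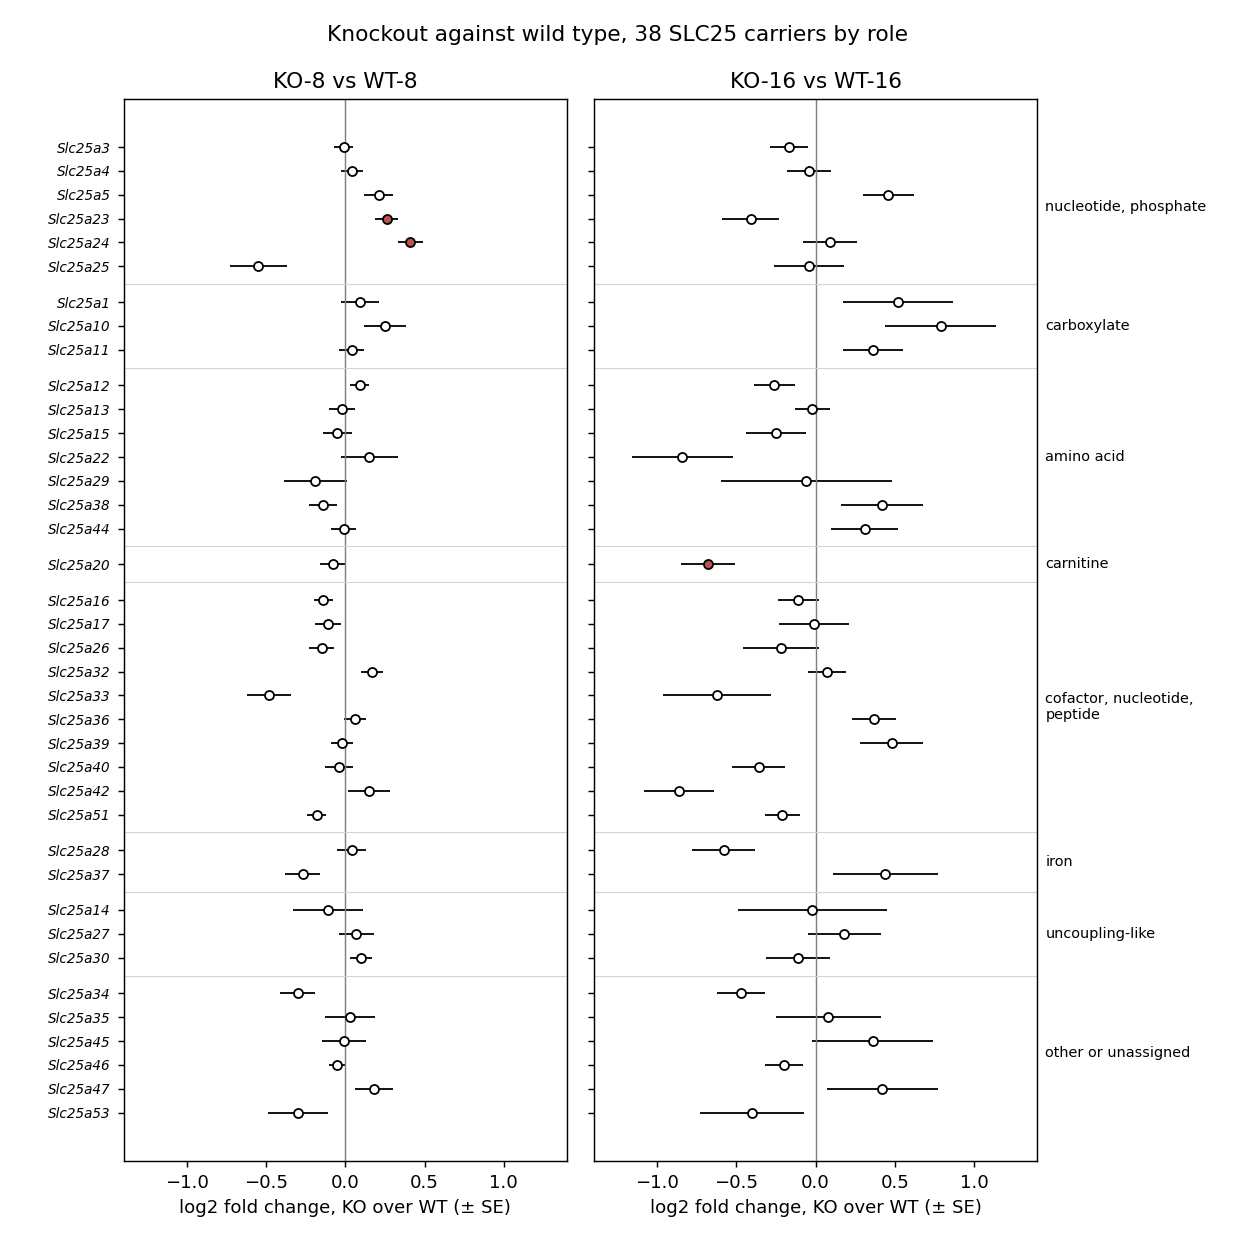
Log2 fold change of 38 of the 39 carriers with its SE at 8 weeks (left, KO-8 over WT-8) and 16 weeks (right, KO-16 over WT-16), grouped by role. Filled points passed the test (Slc25a23 and Slc25a24 at 8 weeks, Slc25a20 at 16 weeks), and the values at 16 weeks are spread over a wider range.

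Among the 6 carriers of adenine nucleotides and phosphate, 2 rose at 8 weeks and none passed at 16 weeks in the fits to each time. Slc25a24 had 8.17, 8.07, 7.82 and 7.39 CPM in the 4 KO-8 libraries, against 5.16, 5.99, 5.75, 6.33 and 6.24 CPM in the 5 WT-8 libraries. Every KO-8 library lay above every WT-8 library. The log2 fold change was 0.41 ± 0.08 (adjusted p = 0.00778), a level 1.33-fold higher, and it passed with each of the 9 libraries left out in turn (adjusted p 0.00968 to 0.0231), though not in the joint fit (0.41 ± 0.12, adjusted p = 0.241). At 16 weeks Slc25a24 had 6.96 to 8.82 CPM in KO-16 and 5.78 to 8.96 CPM in WT-16, with a log2 fold change of 0.09 ± 0.17 (adjusted p = 0.782). Slc25a23 had 17.1, 18.8, 16.6 and 19.6 CPM in KO-8, against 15.5, 14.7, 13.4, 15.6 and 15.7 CPM in WT-8. These groups did not overlap either, with 15.7 CPM in the highest WT-8 library and 16.6 CPM in the lowest KO-8 library. Its log2 fold change was 0.26 ± 0.07 (adjusted p = 0.0324), but it did not pass without replicate 2, 3 or 4 of WT-8 or without replicate 2 or 4 of KO-8 (adjusted p 0.0515 to 0.0859), nor in the joint fit (adjusted p = 0.701). At 16 weeks Slc25a23 had 14.8 to 24.6 CPM in KO-16 and 16.6 to 29.3 CPM in WT-16, a log2 fold change of -0.41 ± 0.18 (adjusted p = 0.184). The joint fit called it lower in KO-16 (-0.41 ± 0.14, adjusted p = 0.0493). Markers of fibroblasts and endothelium were also higher in KO-8, with 5 of 10 and 3 of 10 markers past the threshold. The fibroblast markers summed to 1124 to 1652 CPM in KO-8 and 1108 to 1179 CPM in WT-8, and the endothelial markers to 784 to 863 CPM in KO-8 and 719 to 767 CPM in WT-8, with none of either list at 0. Of the markers of smooth muscle and pericytes 4 of 9 were higher and 1 lower in KO-8, of macrophages none of 10 passed, and of adipocytes 1 of the 2 tested, Fabp4, was higher. Of the 10 cardiomyocyte markers 2 were lower in KO-8, Ryr2 (log2 fold change -0.33 ± 0.07, adjusted p = 0.00885) and Pln (-0.26 ± 0.06, adjusted p = 0.0165). In the joint fit no marker of these lists passed at 8 weeks. Their part in the higher Slc25a24 and Slc25a23 was not tested.

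The bases before the RefSeq start of Slc25a24 and Slc25a23, the carriers that rose at 8 weeks, are shown on the coding strand of each gene, with capitals marking the GC box, GGGCGG or its reverse complement CCGCCC. The Slc25a24 stretch lies at chr3:109122899-109123148 on the plus strand and the Slc25a23 stretch, before the first of 2 starts listed, at chr17:57059864-57060113 on the minus strand (RefSeq, GRCm38.p6).
Slc25a24: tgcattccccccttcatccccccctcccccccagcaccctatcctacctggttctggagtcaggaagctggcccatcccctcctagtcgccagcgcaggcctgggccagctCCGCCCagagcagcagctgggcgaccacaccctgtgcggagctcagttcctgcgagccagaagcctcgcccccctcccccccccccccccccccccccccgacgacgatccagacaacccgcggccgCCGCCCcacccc
Slc25a23: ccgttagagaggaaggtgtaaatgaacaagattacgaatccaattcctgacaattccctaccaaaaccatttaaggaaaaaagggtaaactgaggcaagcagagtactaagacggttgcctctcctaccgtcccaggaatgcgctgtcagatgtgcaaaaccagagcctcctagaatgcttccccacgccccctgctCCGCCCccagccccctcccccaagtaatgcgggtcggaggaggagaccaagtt
The first stretch holds 2 GC boxes and the second holds 1. Of the 39 carriers 30 had a promoter in the RefSeq list. Of these, 22 (73.3%) held a GC box in the 250 bases before the start, against 32.7% of all 32851 promoters listed. The sets are not alike. All carriers were chosen as expressed in these libraries, while the full list was not limited to expressed genes and holds several starts for some genes. Whether carriers differ in this from other expressed genes was not tested. A match describes these letters and no binding.

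The other carriers of this group did not pass at either time in the fits to each time. Slc25a25, the third calcium-dependent ATP-Mg/phosphate carrier, had 7.01, 6.52, 5.47 and 7.99 CPM in KO-8 and 10.2, 14.5, 10.7, 7.53 and 7.10 CPM in WT-8. The groups overlapped through replicates 4 and 5 of WT-8, and the log2 fold change was -0.55 ± 0.18 (adjusted p = 0.0823). Slc25a4 had 2395, 2144, 2077 and 1990 CPM in KO-8, against 2238, 2095, 2078, 2156 and 1902 CPM in WT-8, a log2 fold change of 0.04 ± 0.07 (adjusted p = 0.775). At 16 weeks the levels were 1849, 1807, 1271, 1779 and 1436 CPM in KO-16, against 1591, 1571, 1770, 1693 and 1736 CPM in WT-16, a log2 fold change of -0.04 ± 0.14 (adjusted p = 0.892). The groups overlapped at both times, and the KO-16 libraries were spread more widely than the WT-16 libraries, with 3 above and 2 below all of them. Slc25a3 had log2 fold changes of -0.01 ± 0.06 (adjusted p = 0.940) at 8 weeks and -0.17 ± 0.12 (adjusted p = 0.428) at 16 weeks. Slc25a5 had 67.9, 118, 74.3, 106 and 68.4 CPM in KO-16, against 58.4, 63.7, 66.1, 58.6 and 70.8 CPM in WT-16. Replicates 2, 3 and 4 of KO-16 lay above all WT-16 libraries and replicates 1 and 5 lay within their range. The difference on the log2 scale was 0.46 ± 0.16 (adjusted p = 0.120), while the joint fit gave 0.46 ± 0.14 (adjusted p = 0.0275). Of the 51-base stretches of Slc25a5 transcripts, 33.0% also occur in transcripts of 9 other genes, so its counts depend on how the authors assigned such reads. The shared part was 24.9% in Slc25a35, 12.6% in Slc25a33 and at most 6.97% in the other carriers.

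**Figure D3:**
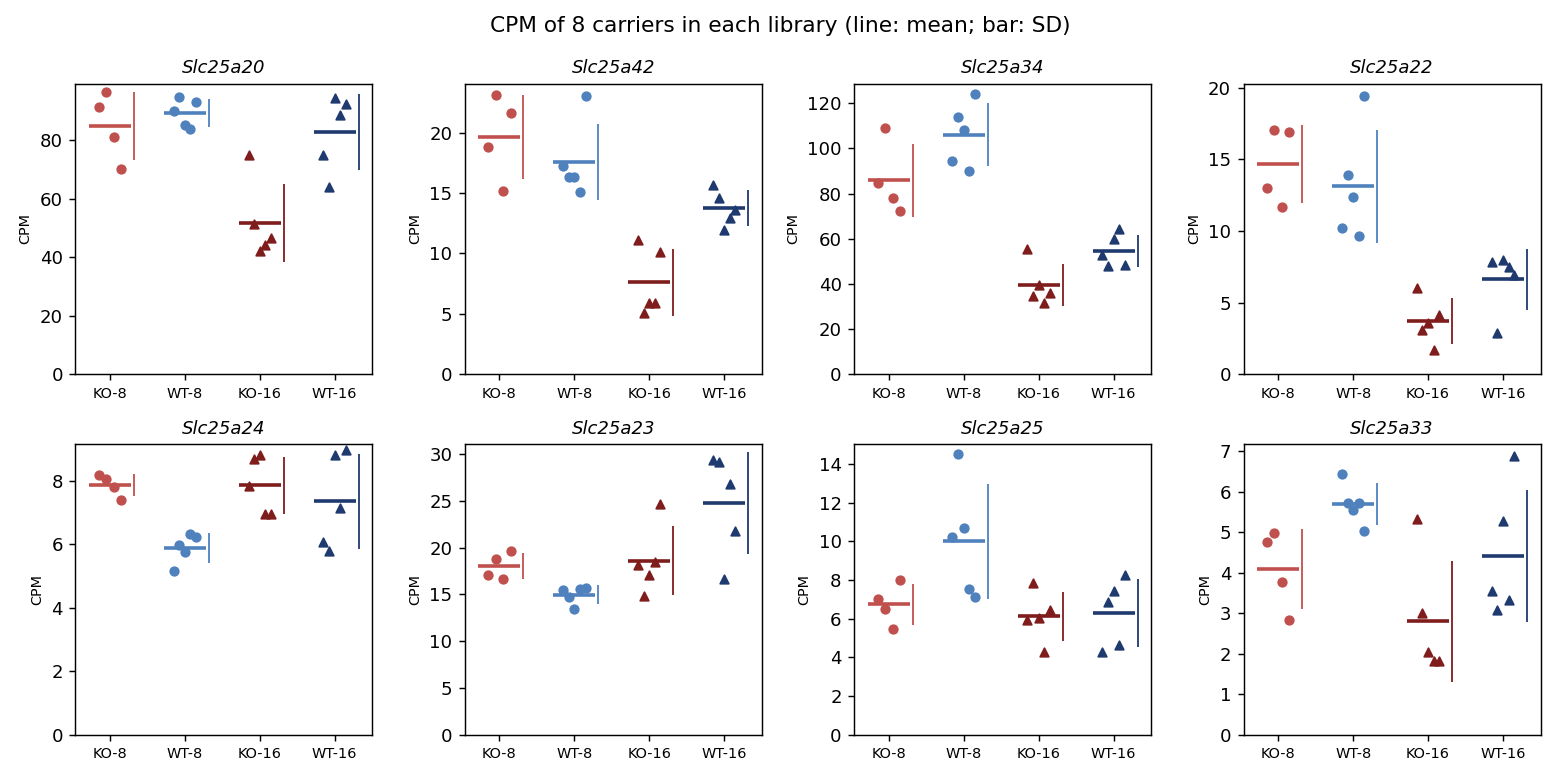
CPM of 8 carriers in every library of KO-8, WT-8, KO-16 and WT-16, with the group mean as a line and the SD as a bar. Slc25a24 and Slc25a23 are higher in KO-8 with no overlap, Slc25a42 is lower in KO-16 with no overlap, and replicate 1 of KO-16 (74.9 CPM) lies among the WT-16 libraries in Slc25a20.

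The carnitine-acylcarnitine carrier fell at 16 weeks. Slc25a20 (ENSMUSG00000032602, GRCm38 chromosome 9, 108662088 to 108684641, plus strand) had 74.9, 51.3, 42.1, 44.3 and 46.5 CPM in KO-16, against 75.0, 63.9, 94.5, 88.7 and 92.4 CPM in WT-16. Replicates 2 to 5 of KO-16 lay below all WT-16 libraries, and replicate 1 lay above the lowest of them. The means were 51.8 ± 13.3 CPM in KO-16 and 82.9 ± 13.02 CPM in WT-16 (SD over 5 libraries of each), which is a difference on the log2 scale of -0.68 ± 0.17 (adjusted p = 0.0467). The call was close to the threshold: it was lost in 8 of 10 fits that left out 1 library (each WT-16 library and replicates 2, 3 and 4 of KO-16, adjusted p 0.0776 to 0.127), with the log2 fold change between -0.85 and -0.61 throughout. It was also lost with upper-quartile factors (adjusted p = 0.0505), with the later sequencing file of each sample alone (0.0630), with 18S share added to the model (-0.75 ± 0.18, adjusted p = 0.0953) and without the 2 libraries set apart by sex-linked transcripts (-0.59 ± 0.19, adjusted p = 0.212). At 8 weeks Slc25a20 had 91.4, 96.5, 81.3 and 70.2 CPM in KO-8, against 90.0, 94.8, 85.4, 83.8 and 93.1 CPM in WT-8, and its log2 fold change was -0.08 ± 0.08 (adjusted p = 0.633).

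Of the 4 enzymes that make or use acylcarnitines on either side of this carrier, 2 fell at 16 weeks and none passed at 8 weeks, with a median log2 fold change of -0.57 at 16 weeks, against 0.02 over all genes. Cpt2, which reforms acyl-CoA in the matrix, averaged 44.9 CPM in KO-16 and 72.5 CPM in WT-16 (log2 fold change -0.69 ± 0.17, adjusted p = 0.0460). Crat, the carnitine acetyltransferase, averaged 175 CPM in KO-16 and 285 CPM in WT-16 (-0.70 ± 0.17, adjusted p = 0.0460). Both calls were close to the threshold, as that of Slc25a20 was. How they depend on single libraries is not given here. Cpt1a and Cpt1b, the outer-membrane palmitoyltransferases, had -0.46 (adjusted p = 0.135) and -0.12 (adjusted p = 0.677), and in the joint fit Cpt1a was also called lower (-0.46 ± 0.15, adjusted p = 0.0337). Other transcripts moved between the same libraries. Cardiomyocyte markers summed to 50388, 29679, 32427, 35372 and 44384 CPM in replicates 1 to 5 of KO-16 and to 47997 to 55018 CPM in WT-16, although none of the 10 markers passed in the fit to 16 weeks. In the joint fit 4 were lower (Pln, Ryr2, Tnni3 and Myh6) and 1, Mybpc3, was higher. Fibroblast markers summed to 895 to 1730 CPM in KO-16 and 678 to 942 CPM in WT-16, and 4 of 10 were past the threshold, led by Col1a2 with a log2 fold change of 2.13 ± 0.38 (adjusted p = 0.0174). None of either list was at 0. Endothelial markers (1 of 10) and smooth muscle and pericyte markers (1 of 9) were also called higher, and macrophage, erythroid and adipocyte markers were not. The joint fit called 6 of 10 fibroblast and 8 of 10 endothelial markers higher. It also called 3 of 9 smooth muscle and pericyte markers higher and 1 lower, 2 of 10 macrophage markers higher and 1 lower, and 5 of 7 erythroid markers higher. Their part in the lower Slc25a20, Cpt2 and Crat was not tested.

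The bases before Slc25a20, the carrier that fell at 16 weeks, are shown at chr9:108661886-108662087 on the plus strand (RefSeq, GRCm38.p6), from 250 bases before the RefSeq start up to the gene as the deposited annotation gives it. Beside it stands Slc25a34, at chr4:141623835-141624084 on the minus strand, 1 of 4 carriers whose promoter held AGGTCA or TGACCT, the half-site bound by many nuclear receptors. Capitals mark this half-site and the GC box.
Slc25a20: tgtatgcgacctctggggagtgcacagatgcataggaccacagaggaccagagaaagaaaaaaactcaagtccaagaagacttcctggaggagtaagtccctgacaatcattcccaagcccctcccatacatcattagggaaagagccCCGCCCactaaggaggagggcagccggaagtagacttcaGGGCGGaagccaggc
Slc25a34: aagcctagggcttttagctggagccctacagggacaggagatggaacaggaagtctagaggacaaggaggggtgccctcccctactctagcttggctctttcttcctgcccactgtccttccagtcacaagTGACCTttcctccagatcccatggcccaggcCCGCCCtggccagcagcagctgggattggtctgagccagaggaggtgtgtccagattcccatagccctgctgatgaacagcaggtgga
The Slc25a20 stretch holds 2 GC boxes and no half-site, and the Slc25a34 stretch holds 1 of each. The half-site was found in 4 of 30 carrier promoters (13.3%: Slc25a34, Slc25a39, Slc25a45 and Slc25a47) and in 14.02% of all promoters, counted as for the GC box. The carriers with a half-site other than Slc25a34 had log2 fold changes above 0 at 16 weeks. These were 0.48 ± 0.20 for Slc25a39, 0.36 ± 0.38 for Slc25a45 and 0.42 ± 0.35 for Slc25a47. A link between the half-site and these levels was not tested. Slc25a34 had 55.3, 34.5, 39.5, 31.7 and 36.0 CPM in KO-16, against 52.8, 47.7, 59.8, 64.2 and 48.5 CPM in WT-16. All KO-16 libraries other than replicate 1 lay below all WT-16 libraries. The log2 fold change was -0.47 ± 0.15 (adjusted p = 0.0958), and in the joint fit it passed (-0.47 ± 0.15, adjusted p = 0.0279). At 8 weeks it had 84.5, 109, 77.9 and 72.4 CPM in KO-8, against 94.3, 114, 108, 89.9 and 124 CPM in WT-8, a log2 fold change of -0.30 ± 0.11 (adjusted p = 0.122).

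The 3 carriers of carboxylates did not pass at either time in the fits to each time. Their log2 fold changes were all above 0, with medians of 0.09 at 8 weeks and 0.52 at 16 weeks, against -0.01 and 0.02 over all genes. Slc25a10, the dicarboxylate carrier, had 1.96, 4.77, 2.90, 3.42 and 1.49 CPM in KO-16, against 2.27, 0.903, 1.70, 1.66 and 2.30 CPM in WT-16. Replicates 2, 3 and 4 of KO-16 lay above all WT-16 libraries, and the other two lay among them. KO-16 over WT-16 gave a log2 value of 0.79 ± 0.35 (adjusted p = 0.192), while the joint fit gave 0.85 ± 0.28 (adjusted p = 0.0387). At 8 weeks it was 0.25 ± 0.13 (adjusted p = 0.245). Slc25a11, which exchanges oxoglutarate for malate in the malate-aspartate shuttle, had 88.7, 120, 96.9, 78.5 and 52.3 CPM in KO-16, against 63.4, 63.2, 89.9, 62.0 and 61.8 CPM in WT-16. The groups overlapped, with replicate 5 of KO-16 below and replicates 2 and 3 above every WT-16 library. The log2 fold changes were 0.36 ± 0.19 (adjusted p = 0.266) at 16 weeks and 0.04 ± 0.08 (adjusted p = 0.792) at 8 weeks. Slc25a1, the citrate carrier, had 0.52 ± 0.35 (adjusted p = 0.375) at 16 weeks and 0.09 ± 0.12 (adjusted p = 0.707) at 8 weeks.

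Of the 7 carriers of amino acids none passed at either time, with medians of -0.02 at 8 weeks and -0.06 at 16 weeks. Slc25a22, a glutamate carrier, had 6.03, 3.07, 3.58, 1.71 and 4.15 CPM in KO-16, against 7.83, 2.89, 7.96, 7.49 and 6.89 CPM in WT-16. All KO-16 libraries lay below 4 of the WT-16 libraries, and the groups overlapped through replicate 2 of WT-16. Its log2 fold change of -0.84 ± 0.32 did not pass (adjusted p = 0.135), and that of the joint fit did (-0.85 ± 0.29, adjusted p = 0.0414). At 8 weeks it had 11.7 to 17.03 CPM in KO-8 and 9.62 to 19.4 CPM in WT-8, a log2 fold change of 0.15 ± 0.18 (adjusted p = 0.670). The aspartate-glutamate carriers of the malate-aspartate shuttle, Slc25a12 and Slc25a13, had log2 fold changes of 0.09 ± 0.06 (adjusted p = 0.418) and -0.02 ± 0.08 (adjusted p = 0.938) at 8 weeks. At 16 weeks they had -0.26 ± 0.13 (adjusted p = 0.230) and -0.02 ± 0.11 (adjusted p = 0.940). Of the 4 enzymes of the shuttle, 1 passed: Got1, the cytosolic aspartate aminotransferase, rose at 8 weeks, with a mean of 407 CPM in KO-8 and 342 CPM in WT-8 (log2 fold change 0.25 ± 0.06, adjusted p = 0.0214; adjusted p = 0.546 in the joint fit), and had -0.00 ± 0.13 (adjusted p = 0.996) at 16 weeks. The smallest p of the group at 8 weeks was that of Slc25a38, a glycine carrier needed for heme synthesis, with -0.14 ± 0.09 (adjusted p = 0.384), and it had 0.42 ± 0.26 (adjusted p = 0.354) at 16 weeks. The ornithine carrier Slc25a15, the basic amino acid carrier Slc25a29 and Slc25a44, which carries branched-chain amino acids, lay between -0.25 and 0.31 at both times.

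None of the 11 carriers of cofactors, nucleotides and peptides passed at either time, with medians of -0.04 at 8 weeks and -0.11 at 16 weeks. Slc25a42, which brings coenzyme A into the matrix, came closest at 16 weeks. It (ENSMUSG00000002346, GRCm38 chromosome 8, 70184340 to 70212305, minus strand) had 11.1, 5.10, 5.92, 5.86 and 10.1 CPM in KO-16, against 15.7, 14.6, 11.9, 12.97 and 13.6 CPM in WT-16. Every KO-16 library lay below every WT-16 library, though replicate 1 of KO-16 and replicate 3 of WT-16 nearly met. The log2 fold change was -0.86 ± 0.22 (adjusted p = 0.0534), just outside the threshold. It passed with DESeq2 (-0.86 ± 0.24, adjusted p = 0.0114), with limma-voom (-0.97 ± 0.22, adjusted p = 0.0442) and in the joint fit (-0.87 ± 0.20, adjusted p = 0.00675). Of 10 fits that left out 1 library it passed in 2, without replicate 1 (adjusted p = 0.00491) or replicate 5 (adjusted p = 0.0204) of KO-16. Elsewhere among these fits the adjusted p reached 0.137. Slc25a20 was called in each fit that called Slc25a42 here. Slc25a42 did not pass with RLE or upper-quartile factors, with either sequencing file alone or with protein-coding genes only. Nor did it pass with the ribosomal RNA share added to the model or without the libraries set apart by sex-linked transcripts. At 8 weeks it had 18.8, 23.1, 15.2 and 21.6 CPM in KO-8, against 17.2, 16.3, 16.3, 15.1 and 23.0 CPM in WT-8, a log2 fold change of 0.15 ± 0.13 (adjusted p = 0.528).

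Slc25a33, a carrier of pyrimidine nucleotides, came closest among these at 8 weeks. It had 4.77, 4.97, 3.78 and 2.84 CPM in KO-8, against 6.45, 5.73, 5.54, 5.73 and 5.03 CPM in WT-8. The groups did not overlap, and the log2 fold change was -0.48 ± 0.14 (adjusted p = 0.0507). At 16 weeks 4 of 5 KO-16 libraries had 1.83 to 3.01 CPM and replicate 1 had 5.33 CPM, against 3.07 to 6.89 CPM in WT-16, a log2 fold change of -0.62 ± 0.34 (adjusted p = 0.275). Its relative Slc25a36, also a pyrimidine nucleotide carrier, had 71.3, 114, 96.2, 105 and 80.8 CPM in KO-16, against 64.9, 68.1, 78.6, 70.2 and 79.3 CPM in WT-16. All KO-16 libraries other than replicate 1 lay above all WT-16 libraries, and the log2 fold change was 0.37 ± 0.14 (adjusted p = 0.126), or 0.37 ± 0.11 (adjusted p = 0.0211) in the joint fit. Slc25a51, which imports NAD, had 33.9, 34.2, 31.8 and 33.5 CPM in KO-8, against 41.5, 38.3, 38.2, 35.6 and 35.1 CPM in WT-8. All KO-8 libraries lay below all WT-8 libraries, by a small margin, and the log2 fold change was -0.18 ± 0.06 (adjusted p = 0.0856). Slc25a39, a glutathione carrier, had 18.9, 28.7, 26.9, 23.9 and 11.6 CPM in KO-16, against 16.2, 14.1, 19.4, 14.97 and 14.5 CPM in WT-16, with replicates 2, 3 and 4 above and replicate 5 below all WT-16 libraries. The fit to 16 weeks gave 0.48 ± 0.20 on the log2 scale (adjusted p = 0.178) and the joint fit 0.48 ± 0.16 (adjusted p = 0.0429). Slc25a16, Slc25a17, Slc25a40, the S-adenosylmethionine carrier Slc25a26 and the folate and FAD carrier Slc25a32 had log2 fold changes between -0.15 and 0.17 at 8 weeks and between -0.36 and 0.07 at 16 weeks.

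The mitoferrins, which bring iron into mitochondria, did not pass at either time. Slc25a28, the form found in most tissues, had 10.2, 6.91, 5.61, 7.32 and 7.14 CPM in KO-16, against 15.4, 11.2, 10.4, 11.5 and 7.58 CPM in WT-16. All KO-16 libraries other than replicate 1 lay below all WT-16 libraries. Its log2 fold change of -0.58 ± 0.20 did not pass (adjusted p = 0.112), but did in the joint fit (-0.58 ± 0.16, adjusted p = 0.0173). Slc25a37, the form known from red cell precursors, had 10.4, 13.02, 34.5, 28.4 and 10.1 CPM in KO-16, against 10.9, 13.4, 16.0, 18.5 and 11.5 CPM in WT-16. Replicates 3 and 4 of KO-16 stood above every other 16-week library, and the log2 fold change was 0.44 ± 0.33 (adjusted p = 0.424). Beside this, the 7 erythroid markers summed to 108, 212, 1136, 569 and 48.0 CPM in replicates 1 to 5 of KO-16 and to 53.3 to 133 CPM in WT-16, with the highest sums in the same replicates 3 and 4 and no marker at 0. None of the 7 passed in the fit to 16 weeks. At 8 weeks Slc25a37 had 10.5 to 14.4 CPM in KO-8 and 13.2 to 17.7 CPM in WT-8, a log2 fold change of -0.27 ± 0.11 (adjusted p = 0.159). The erythroid sum was 257 to 569 CPM in KO-8 and 432 to 957 CPM in WT-8, and 1 of 7 markers, Hbb-bt, fell (log2 fold change -0.80 ± 0.20, adjusted p = 0.0219; adjusted p = 0.681 in the joint fit). The part of blood cells in the Slc25a37 values was not tested.

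The 3 carriers grouped with the uncoupling proteins, Slc25a14, Slc25a27 and Slc25a30, had log2 fold changes between -0.11 and 0.10 at 8 weeks and between -0.11 and 0.18 at 16 weeks. The smallest p among them was that of Slc25a30 at 8 weeks (0.10 ± 0.07, adjusted p = 0.446) and that of Slc25a27 at 16 weeks (0.18 ± 0.23, adjusted p = 0.664). Beside Slc25a34, the carriers with other or unassigned substrates did not pass either. Slc25a46, an outer-membrane protein involved in mitochondrial shape, had -0.05 ± 0.05 (adjusted p = 0.596) at 8 weeks and -0.20 ± 0.12 (adjusted p = 0.305) at 16 weeks. The least studied carriers, Slc25a35, Slc25a45, Slc25a47 and Slc25a53, lay between -0.30 and 0.18 at 8 weeks and between -0.40 and 0.42 at 16 weeks, each with groups that overlapped.

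The knockout effect at 16 weeks minus that at 8 weeks was tested in 1 model over all 19 libraries. At an adjusted p of 0.05 no carrier passed, and 0% of all genes did. An unadjusted p under 0.05 was reached by 8 carriers (20.5%), against 12.9% of all genes. DESeq2 called 30 genes and no carrier, and limma-voom with quality weights called 527 genes and 3 carriers, Slc25a20, Slc25a23 and Slc25a42. Limma-voom without quality weights, and with quality weights set by group, called 0 genes and 0 carriers. The smallest p among the carriers was that of Slc25a42, with a log2 difference of -1.03 ± 0.27 (adjusted p = 0.271). Slc25a22 had -1.01 ± 0.37 (adjusted p = 0.321), Slc25a23 -0.67 ± 0.20 (adjusted p = 0.285), Slc25a28 -0.62 ± 0.22 (adjusted p = 0.313) and Slc25a20 -0.60 ± 0.20 (adjusted p = 0.312). Without replicate 1 of KO-16, the knockout library with the highest Mpc1, 603 of 15503 genes and 5 of 39 carriers passed. These carriers were Slc25a12, Slc25a20, Slc25a22, Slc25a28 and Slc25a42, all with negative differences. Without replicate 5 of KO-16, 113 genes and 0 carriers passed, and without any other library no gene passed. A link between the Mpc1 level and these calls was not tested.

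Related carriers were set against each other within each library as ratios of levels per kilobase, with no test. How often such ratios do not overlap in other gene pairs was not counted. Slc25a4 over Slc25a5, the muscle form over the widely expressed form of the ADP/ATP carrier, was 19.1, 10.7, 11.97, 11.7 and 14.7 in KO-16, against 19.1, 17.2, 18.7, 20.2 and 17.2 in WT-16. Replicates 2 to 5 of KO-16 lay below all WT-16 libraries and replicate 1 lay among them. At 8 weeks the ratio was 15.6 to 18.6 in KO-8 and 17.1 to 20.1 in WT-8. Slc25a23 over Slc25a25 was 3.62, 4.29, 4.52 and 3.64 in KO-8, against 2.27, 1.50, 1.86, 3.08 and 3.28 in WT-8, with no overlap. At 16 weeks it was 2.79 to 6.45 in KO-16 and 3.32 to 10.1 in WT-16, and the groups overlapped. Slc25a33 over Slc25a36 was 0.424, 0.467, 0.288 and 0.264 in KO-8, against 0.597, 0.507, 0.480, 0.521 and 0.480 in WT-8, again with no overlap. At 16 weeks replicates 2 to 5 of KO-16 had 0.0889 to 0.134 and replicate 1 had 0.380, against 0.229 to 0.442 in WT-16. At 8 weeks Slc25a23 and Slc25a33 alone also had groups that did not overlap, so their ratios are not independent of those values. The ratios of Slc25a12 to Slc25a13, of Slc25a28 to Slc25a37 and of Slc25a39 to Slc25a40 overlapped between knockout and wild type at both times. In the last of these, replicates 1 to 4 of KO-16 had 4.44, 8.38, 6.38 and 5.63, above all WT-16 libraries. Replicate 5 had 1.76, below all of them. The ratio of Slc25a39 to Slc25a40 also differed between times, at 1.76 to 8.38 in KO-16 and 12.7 to 15.1 in KO-8, and at 2.30 to 4.15 in WT-16 and 11.6 to 16.0 in WT-8.

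**Figure D4:**
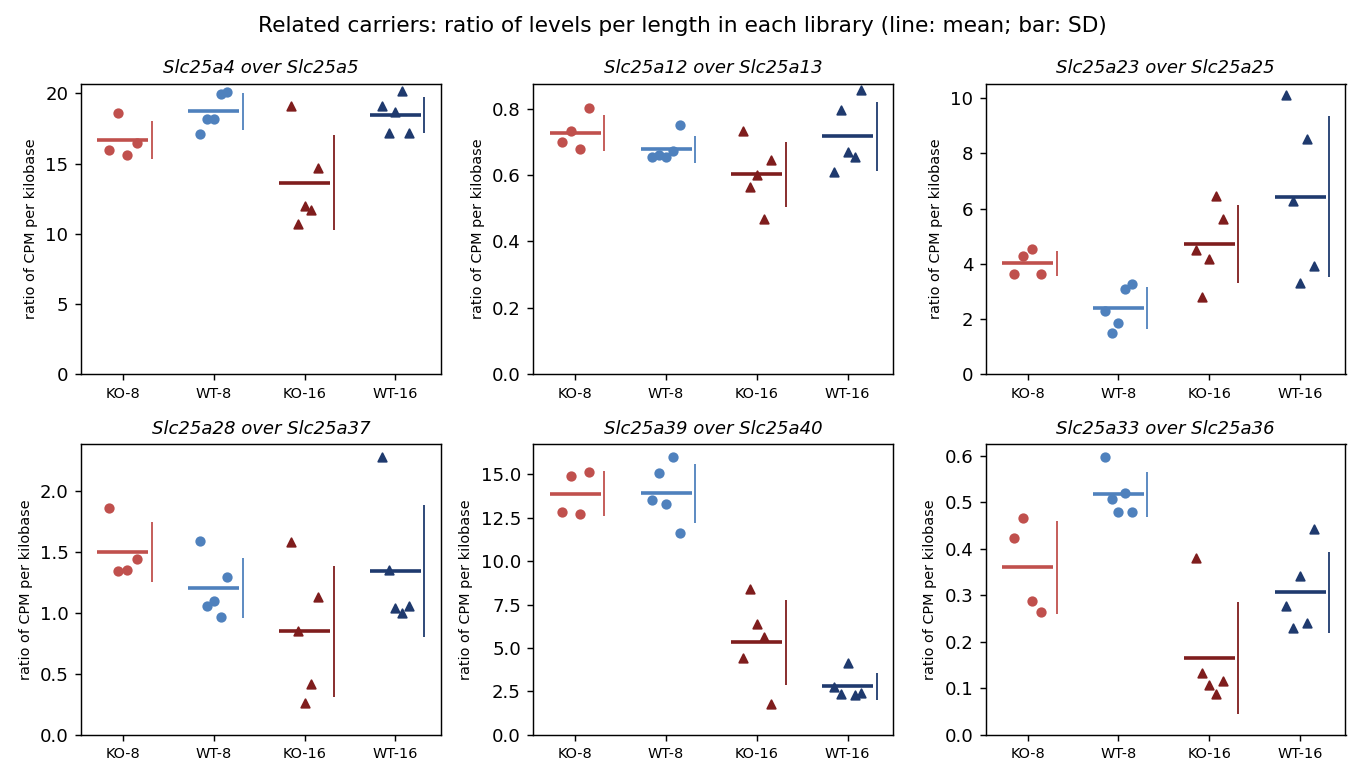
Ratio of levels per kilobase of exon for 6 pairs of related carriers in every library, with group mean (line) and SD (bar). Slc25a4 over Slc25a5 is 10.7 to 14.7 in replicates 2 to 5 of KO-16 and 17.2 to 20.2 in WT-16. Slc25a23 over Slc25a25 and Slc25a33 over Slc25a36 do not overlap between KO-8 and WT-8, and neither do Slc25a23 and Slc25a33 alone.

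The knockout libraries differed in how many carriers lay outside the range of the wild-type libraries of their time. In KO-8 these were 14, 20, 22 and 14 of 39 carriers in replicates 1 to 4, shares of 35.9%, 51.3%, 56.4% and 35.9%, against 47.4%, 46.3%, 53.3% and 50.1% of all genes tested. In KO-16 they were 10, 20, 23, 23 and 19 in replicates 1 to 5, shares of 25.6%, 51.3%, 59.0%, 59.0% and 48.7%. Replicate 1 of KO-16, in which Mpc1 was highest among the knockouts, had the lowest share, as it also did over all genes tested (26.7%, against 57.2%, 53.3%, 49.6% and 39.6% in replicates 2 to 5). Without it, 9 carriers passed at 16 weeks: Slc25a5 and Slc25a36 were higher, and Slc25a12, Slc25a20, Slc25a22, Slc25a28, Slc25a33, Slc25a34 and Slc25a42 were lower (1864 of all genes passed). Without replicate 5, Slc25a5 and Slc25a39 were higher and Slc25a20, Slc25a40 and Slc25a42 were lower (again 1864 of all genes). Without any other 16-week library no carrier passed.

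**Figure D5:**
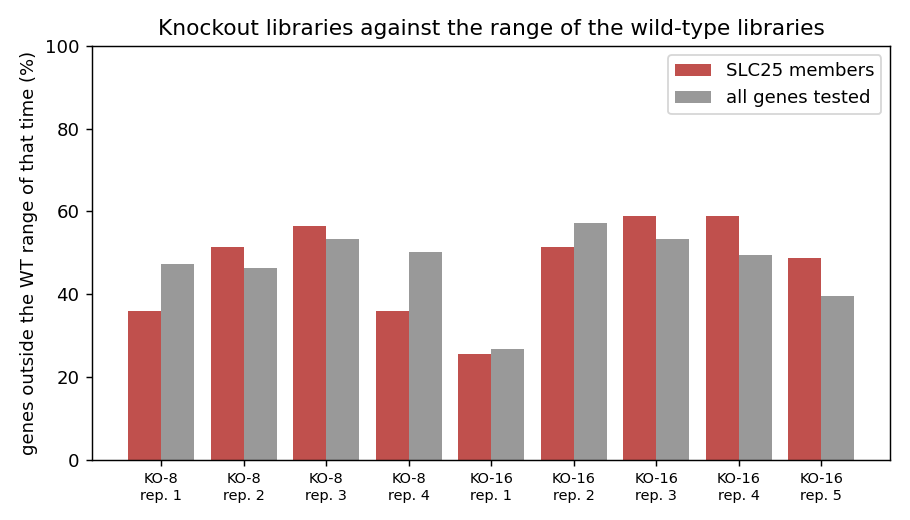
Share of the 39 carriers and of all genes tested whose level in a knockout library lies outside the range of the wild-type libraries of the same time, for each KO-8 and KO-16 library. Replicate 1 of KO-16 has the lowest share in both (25.6% of carriers and 26.7% of all genes).

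Carrier levels also differed between the 2 times. KO-16 and KO-8 did not overlap in 19 of 39 carriers (48.7%, against 25.6% of all genes), of which 17 were lower at 16 weeks (14.7% of all genes were) and 2 were higher (10.9%). WT-16 and WT-8 did not overlap in 20 of 39 carriers (51.3%, against 39.1% of all genes), of which 15 were lower at 16 weeks (21.6% of all genes) and 5 were higher (17.5%). Slc25a36 and Slc25a40, a relative of the glutathione carrier Slc25a39, were higher at 16 weeks in both genotypes. In wild type Slc25a11 showed the widest ratio between the times, with a mean level of 68.1 ± 12.2 CPM in WT-16 and 205 ± 22.8 CPM in WT-8 (SD, n = 5 each). The 16-week samples came as 2 deposited files each and the 8-week samples as 1, and the 18S share differed between them, so time after induction and sequencing cannot be told apart.

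The next lists cover carrier import, other inner-membrane transport, outer-membrane pores and family members under other symbols. Within these lists Mpc1 was the only gene that passed in the fits to each time. In the joint fit at 16 weeks 7 others passed, and the share over all genes in that fit was 20.5%. Of the 13 tested subunits of the import path for carriers none passed at either time, with a median log2 fold change of 0.04 at 8 weeks and 0.21 at 16 weeks. In the joint fit 3 of the 13, Tomm20, Timm10 and Timm22, were higher in KO-16, against 11.2% of all genes. Tomm20, a receptor of the outer membrane, had 0.36 ± 0.11 (adjusted p = 0.0227). Timm10, a chaperone between the membranes, had 0.32 ± 0.11 (adjusted p = 0.0387). Timm22, the channel that inserts carriers, had 0.38 ± 0.13 (adjusted p = 0.0429). Of 19 other transporters and channels of the inner membrane 1 passed at each time, Mpc1 itself, and Mpc2 had 0.05 ± 0.08 (adjusted p = 0.760) at 8 weeks and 0.15 ± 0.15 (adjusted p = 0.571) at 16 weeks. The joint fit also called Ghitm lower in KO-16 (-0.23 ± 0.08, adjusted p = 0.0442). None of the 3 outer-membrane pores (Vdac1, Vdac2 and Vdac3) passed in the fits to each time, and Vdac1 was called lower in KO-16 in the joint fit (-0.39 ± 0.09, adjusted p = 0.00836). The 4 tested members of the carrier family under other symbols were Ucp2, Ucp3, Mtch1 and Mtch2, and none passed in the fits to each time. In the joint fit Mtch1, an outer-membrane protein, was higher in KO-16 (0.62 ± 0.14, adjusted p = 0.00669) and Ucp3 was lower (-2.28 ± 0.56, adjusted p = 0.00861). Ucp3, the uncoupling protein of muscle, averaged 12.4 ± 11.9 CPM in KO-16 and 56.0 ± 32.6 CPM in WT-16 (SD), a wide spread between libraries. Its log2 fold change in the fit to 16 weeks was -2.24 ± 0.62 (adjusted p = 0.0647), a larger size than that of any Slc25a carrier. At 8 weeks it averaged 54.3 ± 3.83 CPM in KO-8 and 50.2 ± 27.3 CPM in WT-8 (SD), a log2 fold change of 0.11 ± 0.27 (adjusted p = 0.855).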

How the data were processed

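The values were gene counts deposited by the authors, whole read pairs per gene. Per the file headers, featureCounts 1.6.3 counted them with the pair, reverse-strand and largest-overlap settings on Ensembl 96 (GRCm38). Per the submitters' processing notes, FastQC, cutadapt 1.16, RSEM, STAR and SAMtools were also used, in no stated role or order. Per the labels' protocols, ribosomal RNA was depleted before stranded libraries were sequenced as pairs of 51 bases. The 2 files of each 16-week sample were summed, and no sample was left out. Of the 39 carriers 1 is counted in the totals and not reported here by itself.

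The carriers, gene lists and tests were chosen with earlier results of these data known. Counts were tested with edgeR 4.0.16 (quasi-likelihood, TMM factors of 0.455 to 1.48, filterByExpr, a mean per group) in R 4.3.3, with Benjamini-Hochberg adjustment over 15503 genes and a threshold of 0.05. Each time was fitted on its own libraries because their spread differed, and the difference between both effects was fitted on all 19. SEs were derived from the fold change and the F statistic. Any carrier could be named; full statistics are given for called carriers, the 5 highest per kilobase and the smallest p of each role group, and for called genes of the lists. Alternatives were RLE and upper-quartile factors, other filters, DESeq2 1.42.0, limma-voom (limma 3.58.1) with and without quality weights, gene subsets, the joint fit, the 18S share as a covariate, 1 deposited file alone, and each library left out. Added after seeing the data were a fit without ribosomal RNA genes and one to the 16-week libraries over 20% 18S. The scripts were tested on simulated data. Promoters are from RefSeq (GRCm38.p6), and the stretches shared between genes from GENCODE transcripts of the same build. Tables were made in Python 3.11.15 (pandas 2.3.3, numpy 2.4.6) and figures with matplotlib 3.10.9. PCR duplicates cannot be told from molecules, and depth limits the low carriers most.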

Additional observations from a re-analysis of the deposited data

Results flagged for a closer look

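Within groups, 10 of the 156 sets of library values (39 carriers in 4 groups) had 1 library that lay far from the others by Dixon's gap test, and chance alone gives about 1 in 20. Slc25a20 had 74.9 CPM in replicate 1 of KO-16, with replicates 2 to 5 between 42.1 and 51.3 CPM. Slc25a38, the glycine carrier, had 1.99 CPM in replicate 5 of KO-16 (others 3.78 to 4.24), and Slc25a40 had 20.1 CPM in the same library (others 10.4 to 12.97). Slc25a46 had 73.2 CPM in replicate 1 of KO-8 (others 67.4 to 67.9). Among wild-type libraries, Slc25a11 had 89.9 CPM in replicate 3 of WT-16 (others 61.8 to 63.4). Replicate 2 of WT-16 had a low Slc25a22, at 2.89 CPM (others 6.89 to 7.96), and a high Slc25a29, at 1.63 CPM (others 0.230 to 0.552). Replicate 5 of WT-8 had a high Slc25a32, at 18.4 CPM (others 15.8 to 16.1), and a high Slc25a42, at 23.01 CPM (others 15.1 to 17.2). Slc25a46 had 67.5 CPM in replicate 4 of WT-8 (others 72.1 to 73.1).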

How the results depend on the processing

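No carrier with a called change reversed its direction in any fit. At 8 weeks 2 carriers passed; this was 6 with no filter on low counts (Slc25a25, Slc25a33, Slc25a34 and Slc25a37 were added, all lower), 4 with DESeq2 (Slc25a25 and Slc25a33 added), 0 in the joint fit and 1 to 4 with a library left out. Over all genes the 1270 calls became 1695 with no filter (among more genes tested), 1347 with DESeq2, 31 in the joint fit and 876 to 1175 with a library left out. At 16 weeks 1 carrier passed; this was 0 with upper-quartile factors, with the 18S share as a covariate, with the later file alone and without the 2 libraries set apart by sex-linked transcripts, 2 with no filter, DESeq2 or limma-voom, 7 with quality weights, 10 in the joint fit and 0 to 9 with a library left out. Over all genes the 396 calls became 380 with upper-quartile factors, 369 with the later file alone, 12 without those 2 libraries and 33 with the covariate. They became 915 with no filter, 1199 with DESeq2, 2274 with quality weights, 3180 in the joint fit and 37 to 1864 with a library left out. Limma-voom called 391 genes at 16 weeks, of which 115 were higher, against 267 of 396 with edgeR. For the difference between times, no gene passed. The count was 32 with no filter, 30 with DESeq2 and 527 with quality weights (3 carriers). It stayed 0 with limma-voom without quality weights and with quality weights set by group. With 16-week libraries over 20% 18S alone it was 89, and with a library left out 0 to 603 (0 to 5 carriers). The cause of these shifts was not tested. The joint fit estimates 1 spread over times whose libraries vary unequally. Low carriers such as Slc25a29 and Slc25a53 rest on few reads. No paired analysis was possible because the labels number no replicates, and the numbers here follow the order of the samples.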
